A study of Mus musculus with 2 samples.

Results

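Non-cycling plasma cells of the mouse aorta were described in 2 droplet single-cell RNA libraries of CD45+ leukocytes, 1 from mice given ZnDPA@siIRF5, a preparation carrying a small interfering RNA against the transcription factor IRF5, and 1 from a control group. The genotype, diet, sex and age of the mice, the number of animals pooled and the contents of the control preparation are not stated in the labels. The study asked how the treatment acts on macrophages of the aorta, and the plasma cells were collected with them because they carry CD45, the antigen shared by white cells. With 1 library per group there is no replicate and no test. All differences below are thus between 2 libraries. Intervals are 95% intervals that cover counting error only, so differences between mice, dissections and libraries cannot be told apart from the treatment.

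A barcode was taken as a non-cycling plasma cell when it had at least 500 detected genes, at most 15% mitochondrial UMIs (unique molecular identifiers, 1 per captured transcript), at least 20 UMIs of Jchain and Mzb1 together, at least 3 of Sdc1, Tnfrsf17 and Derl3 together, at most 1 UMI over 5 cell cycle genes (Mki67, Top2a, Rrm2, Birc5, Ube2c), and none of the T cell gene Cd3e or the macrophage gene Csf1r. This gave 1040 cells of 24504 that passed the first pair of filters and of 25671 barcodes in all. The treated library held 256 of them among 12466 cells and the control library 784 among 12038. No barcode was a plasma cell in both libraries. Of the barcodes that passed, 38 occurred in both libraries, and 3 control plasma cells were among these.

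A plasma cell is the end stage of the B cell lineage and is built to make a single antibody in bulk. It gives up the B cell receptor programme under the transcription factors Blimp-1 (Prdm1), XBP1 and IRF4, and it enlarges the endoplasmic reticulum (ER), where heavy and light chains are folded, joined, given sugar chains and passed to the Golgi. The heavy chain's constant region sets the isotype: IgM before class switching, and IgG, IgA or IgE after it. The J chain links IgM and IgA into polymers. In the artery wall, B lineage cells gather mainly in the outer coat, and IgM and IgG antibodies are both studied in atherosclerosis.

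The values that chose the cells are a description. Jchain stood at 67216 UMIs per 1000000 UMIs (CPM) in the treated library and 60743 CPM in the control library, Mzb1, an ER helper of antibody assembly, at 6471 and 6965, the syndecan Sdc1 (CD138) at 280.1 and 277.5, the ER degradation factor Derl3 at 606.0 and 767.9, and the survival receptor Tnfrsf17 (BCMA) at 189.7 and 150.9. All CPM values here are of UMIs outside the immunoglobulin genes, summed over the plasma cells of a library, unless said otherwise. The edges of the rule were thinly filled for Jchain and Mzb1: 2 treated and 4 control cells had 20 to 29 UMIs of them, and 0 and 2 further barcodes would have entered with 10 to 19. They were fuller for the sum of Sdc1, Tnfrsf17 and Derl3, where 20 and 88 cells lay at 3 UMIs and 12 and 70 barcodes just outside at 2. A further 64 and 152 barcodes met every other condition but held a UMI of Cd3e or Csf1r.

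Markers that the rule did not use fitted the label. Xbp1 reached 2370 CPM in the treated and 2830 CPM in the control plasma cells against 30.8 and 34.0 CPM in B cells of the same libraries, and Fkbp11, an ER prolyl isomerase, 463.9 and 572.4 CPM against 7.57 and 5.24. Slamf7, Edem1, Eaf2, Prdm1, Irf4 and Tnfrsf13b (TACI) were all higher in plasma cells than in B cells in both libraries. The B cell markers Pax5, Cd22 and Fcer2a stood at 11.3 CPM or less in the plasma cells, and Pax5 at 7.72 and 11.3 CPM against 349.0 and 315.9 CPM in B cells. B cells were taken as cells with at least 2 UMIs of Cd79a and 2 UMIs over B cell marker genes that include Ms4a1, and under the limits for Jchain and Mzb1 and for cell cycle genes, 691 and 1101 in number. Cycling plasmablasts, the dividing cells before this stage, were cells of the same rule with at least 2 cell cycle UMIs, 43 and 206 in number. This edge was well filled: 14 treated and 33 control plasmablasts had exactly 2 such UMIs, and 43 and 164 non-cycling cells had 1. Immunoglobulin genes took a median of 52.5% and 51.5% of the UMIs of the cells at 2. At 3 or more the medians were 13.4% and 20.1%.

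The plasma cells were deeply captured. The median was 18339 UMIs per cell (range 2714 to 60923) in the treated library and 17384.5 (3834 to 56992) in the control library, against 5077 and 4505 UMIs in B cells. Immunoglobulin genes took 56.3% and 59.6% of the UMIs of these cells, 24.6% and 24.4% in cycling plasmablasts and 0.987% and 1.07% in B cells. Although 2.05% and 6.51% of the cells, the plasma cells held 67.7% and 63.7% of all immunoglobulin UMIs of their library. Igkc alone, the kappa light chain constant gene, was 40.9% and 43.4% of their UMIs.

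Plasma cells were a smaller share of leukocytes in the treated library, 2.05% (256 of 12466, 1.81% to 2.32%) against 6.51% (784 of 12038, 6.08% to 6.97%). B cells were also a smaller share there, 5.54% against 9.15%, and there were 37.0 plasma cells per 100 B cells in the treated and 71.2 in the control library. Of all cells of the antibody-secreting kind, cycling or not, the non-cycling ones were 85.6% (81.1% to 89.4%) in the treated and 79.2% (76.5% to 81.7%) in the control library. That share depends on the limit set for cell cycle UMIs, which was not varied. These are shares of the cells captured, and absolute numbers per aorta were not measured.

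The isotypes of the plasma cells differed between the libraries. Each cell was given the heavy constant gene with the most UMIs, which held a median of 99.9% and 99.6% of the cell's heavy constant UMIs. IgM cells were 58.6% (150 of 256, 52.3% to 64.7%) of the plasma cells in the treated library and 35.8% (281 of 784, 32.5% to 39.3%) in the control library. IgG cells were 30.1% (77 cells, 24.5% to 36.1%) and 58.4% (458 cells, 54.9% to 61.9%). IgA cells were 11.3% (29 cells, 7.72% to 15.9%) and 4.59% (36 cells, 3.24% to 6.30%). The intervals of the libraries did not overlap for any of these isotypes. They take the cells of a library as independent, which was not tested, so this is a description and no test.

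Within IgG, the subclasses stood in the same order in both libraries. Ighg2c cells numbered 36 and 227, Ighg2b cells 24 and 155, Ighg1 cells 12 and 51, and Ighg3 cells 5 and 25. The intervals of Ighg2c (10.05% to 18.9%) and Ighg2b (6.10% to 13.6%) overlapped in the treated library. IgE was the call of 2 control cells and of 0 of 256 treated cells. The limit that a count of 0 allows, 3 cells of the total, is a share of 1.17%, and the Clopper-Pearson upper bound is 1.43%. The call was open in 7 control cells, where no constant gene reached 60% of the heavy UMIs. The lambda light chain was used by 14 treated cells (5.47%) and 40 control cells (5.10%), a share that did not differ beyond counting error.

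Set against all leukocytes, the gap lay mostly in the IgG cells. IgG plasma cells were 0.618% of the cells in the treated and 3.805% in the control library, a 6.16-fold lower share. The ratio was 1.94-fold for IgM cells (1.20% and 2.33%) and 1.29-fold for IgA cells (0.233% and 0.299%). Cycling plasmablasts also had more IgM and IgA and less IgG in the treated library by these counts: IgM 46.5% and 32.0%, IgG 37.2% and 59.2%, and IgA 16.3% and 7.28%. In the treated library those shares rest on 43 plasmablasts, and their intervals (31.2% to 62.3% for IgM and 23.0% to 53.3% for IgG) are wide.

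**Figure D1:**
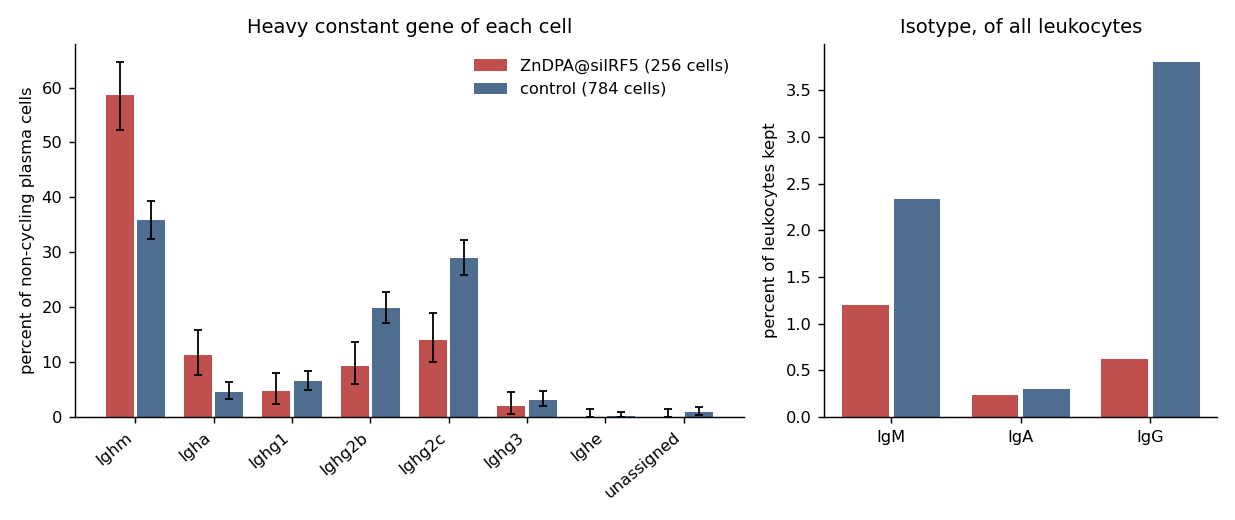
Left: percent of non-cycling plasma cells whose heavy constant gene is the one named, for 256 cells of the treated and 784 of the control library, with exact 95% binomial intervals. Right: IgM, IgA and IgG plasma cells as a percent of all leukocytes kept. Ighm is the tallest bar of each library (58.6% treated, 35.8% control). Ighg2b and Ighg2c are higher in the control than in the treated library, and on the right the IgG bars are the farthest apart (0.618% and 3.805%).

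Variable genes, which carry the antigen-binding end of each chain, could be read in part of the cells, since the libraries count the 3′ end of transcripts. A heavy V gene was called in 84 of 256 treated and 248 of 784 control cells. The light V gene with the most UMIs was Iglv1 in 118 treated and 468 control cells, although 94.5% and 94.8% of cells used kappa. Iglv1 had a median of 14 UMIs in treated and 26 UMIs in control kappa cells, and was found in 220 of 242 and 710 of 743 of them, but in 19 of 691 and 60 of 1101 B cells. The Iglv1 UMIs of kappa cells were therefore not read as their light chain, and pairs were counted again with kappa V genes in kappa cells only, a choice made after the data were seen.

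With kappa V genes, 67 treated and 188 control cells had a heavy and a light V gene, in 41 and 83 different pairs. Pairs held by at least 2 cells took 55.2% of the treated and 70.2% of the control cells. Such a share rises with the number of cells that have a pair. The libraries were not brought to equal numbers, so the shares cannot be compared. The same pair in 2 cells is not proof of a shared clone, and V genes resemble each other, so reads may be split between relatives. The most frequent control pair was Ighv1-81 with Igkv1-110, in 34 of 188 cells. Igkv1-110 was the kappa V gene of 69.4% of the Ighv1-81 cells with a kappa call and of 1.44% of the others. These 34 cells were of several isotypes: 15 were Ighg2c, 10 Ighg2b, 8 Igha and 1 without a call.

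The next control pairs were also mostly switched: Ighv8-8 with Igkv9-120 was found in 10 cells, 7 of them Ighg2c and 3 Ighg2b, Ighv1-55 with Igkv1-117 in 8 cells, all Ighg2c, and Ighv1-81 with Igkv1-122 in 8 cells, all Ighg2b. The most frequent treated pairs were of IgM cells. Ighv1-9 with Igkv12-46 and Ighv10-1 with Igkv1-135 were each found in 7 cells and Ighv14-4 with Igkv6-20 in 6 cells, all of them Ighm. The pair that followed, Ighv14-4 with Igkv8-30, was found in 3 cells, all Ighg2c. The order of the treated pairs depended on the UMI minimum: with V genes called from at least 2 UMIs, the most frequent treated pair was Ighv1-26 with Igkv4-91, in 23 of 144 cells, and the most frequent control pair was still Ighv1-81 with Igkv1-110, in 53 of 454 cells. Of all pairs, 6 were found in both libraries, held by 12 of the treated and 44 of the control cells with a pair. Removing the most frequent heavy and kappa pair of each library left the counts of genes past 1.5-fold between the libraries at 142 higher and 216 lower, where they were 152 and 213 with it.

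The machinery of antibody secretion was high in the plasma cells and much alike in the libraries. The list of ER folding genes, chaperones and disulphide isomerases that fold antibody chains, summed to 25959 CPM in treated and 26742 CPM in control plasma cells, against 2702 and 2589 CPM in B cells. Of its 25 members 23 were at least 2-fold higher in plasma cells than in B cells in each library. Genes for translocation into the ER summed to 17901 and 18966 CPM against 2658 and 2678 CPM in B cells, and those for ER-associated degradation, which returns misfolded chains to the cytosol, to 8701 and 7797 CPM against 1098 and 1065 CPM. Cycling plasmablasts lay close to the plasma cells for folding (21159 and 23776 CPM) and lower for degradation (4804 and 4823 CPM). These are comparisons between cell classes defined by their genes and are no test.

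Several folding genes share a promoter element. The ER stress response element, the letters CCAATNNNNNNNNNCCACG, is read by NF-Y at its first block and by ATF6 or XBP1 with NF-Y at its second. It was searched on both strands of the RefSeq promoter windows of build GRCm38.p6, which run from 250 bases before a gene's start to 50 after it. Its letters were in 39 of 32851 windows (0.119%). Of the 25 folding genes 21 matched a window by symbol, and 7 of these held the motif: Calr, Canx, Creld2, Dnajc3, Hsp90b1, Hspa5 and Pdia6. Of 12 matched degradation genes 1 held it (Syvn1), and none of 16 translocation, 16 glycosylation and 19 ER-to-Golgi genes did, which says only that these letters were not in those windows. Derl3, a gene of the rule, held it as well. The stretches below are shown because they hold the element in genes at the head of the secretory programme. They run 5′ to 3′ on the gene's own strand, with both fixed blocks in capitals (CCAAT and CCACG, or their reverse complements CGTGG and ATTGG).
Hspa5: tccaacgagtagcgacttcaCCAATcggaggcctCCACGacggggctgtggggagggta
Hsp90b1: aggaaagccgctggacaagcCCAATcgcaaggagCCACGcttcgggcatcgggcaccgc
Pdia6: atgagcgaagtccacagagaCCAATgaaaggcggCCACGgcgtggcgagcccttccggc
Creld2: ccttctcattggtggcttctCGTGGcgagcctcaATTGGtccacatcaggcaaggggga
Derl3: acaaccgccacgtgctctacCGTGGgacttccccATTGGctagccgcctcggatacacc
The stretch of Hspa5 lies at chr2:34772005-34772063 on the plus strand, that of Hsp90b1 at chr10:86705618-86705676 on the minus strand, and those of Pdia6, Creld2 and Derl3 at chr12:17266471-17266529, chr15:88819500-88819558 and chr10:75893222-75893280, all on the plus strand. All lie before the annotated start of the gene, and the Hsp90b1 window holds a second copy nearer the start.

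Hspa5, the chaperone BiP that holds unpaired heavy chains, stood at 2216 CPM in treated and 2044 CPM in control plasma cells against 263 and 237 CPM in B cells. Hsp90b1, the chaperone GRP94, stood at 3841 and 5254 CPM against 270 and 241 CPM. The disulphide isomerase Pdia6 stood at 945 and 921 CPM against 85.4 and 85.1 CPM, and Creld2, another ER factor of disulphide exchange, at 1245 and 1394 CPM against 20.6 and 20.4 CPM. All 4 were thus many times higher in plasma cells, and between the libraries none of them differed by 1.5-fold.

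**Figure D2:**
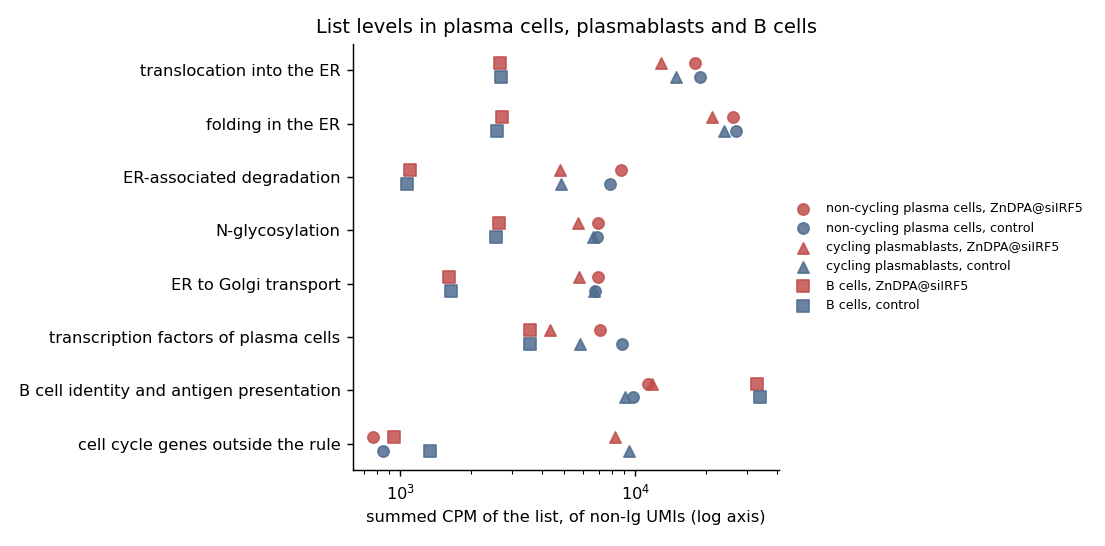
Summed CPM of the named gene lists, of non-immunoglobulin UMIs on a log axis, in non-cycling plasma cells (circles), cycling plasmablasts (triangles) and B cells (squares) of the treated (red) and control (blue) library. The lists of secretion lie highest in plasma cells in both libraries, for folding at 25959 and 26742 CPM, while B cell identity genes lie highest in B cells.

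Most genes stood close together in the libraries. Of 5382 genes that reached 50 UMIs and 20 CPM in either library, 365 (6.78%) differed by at least 1.5-fold: 152 were at least 1.5-fold higher in the treated library (2.82%) and 213 at least 1.5-fold lower (3.96%), and the median log2 ratio of treated over control was -0.03. When CPM were taken over all UMIs, immunoglobulins included, every log2 ratio moved up by 0.11 and the split became 118 higher and 47 lower of 3021 genes that still reached the minimum. It became 111 higher and 273 lower when each gene was counted without the cell of each library that held most of its UMIs. For genes with at least 20 UMIs, the limit used for the gene lists, 1294 of 9142 (14.2%) differed by 1.5-fold: 463 were at least 1.5-fold higher (5.06%) and 831 at least 1.5-fold lower (9.09%). The lists are read against those shares.

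The secretory lists held almost no gene past that fold. Of 23 translocation, 25 folding, 17 N-glycosylation and 22 ER-to-Golgi genes none differed by 1.5-fold, with median log2 ratios of 0.03, -0.03, -0.01 and 0.05. Largest in size within them were Tram2 (-0.50) and Ssr4 (-0.48) of the translocon, the BiP partner Dnajb9 (0.47) and Hsp90b1 (-0.45) in folding, the oligosaccharyl transferase subunit Stt3b (0.47), and the COPII coat gene Sec24d (0.44). Of 15 degradation genes 1 passed, Herpud1, which recruits the ubiquitin ligase complex of the ER membrane. It stood at 2809 CPM in the treated and 1802 CPM in the control library (log2 ratio 0.64, 0.60 to 0.69), and in single cells its median was 25.8 against 15.4 UMIs per 10000 non-immunoglobulin UMIs. Giving both libraries the same isotype weights (47.4% IgM, 7.99% IgA and 44.6% IgG, the mean of their shares) gave 0.57, just under 1.5-fold. These are called equal isotype weights below, equal between the libraries and not between the isotypes. Genes of oxidative phosphorylation also held none of 18 past the fold (median 0.02).

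Plasma cell transcription factors tended low in the treated library, with a median log2 ratio of -0.26 over 19 genes, 0 past 1.5-fold higher and 4 past 1.5-fold lower. Xbp1 (-0.26), Prdm1 (-0.42) and Irf4 (-0.23) were within the fold. Past it were the elongation factor partner Eaf2, at 596.9 against 936.2 CPM (-0.65, -0.74 to -0.56), Mef2c, at 635.5 against 996.2 CPM (-0.65, -0.73 to -0.56), the AP-1 factor Batf (-0.69, -1.32 to -0.10), and the nuclear receptor Rora (-1.87, -2.68 to -1.15). Eaf2, Mef2c and Batf passed by a small margin and were under the fold with CPM over all UMIs (-0.54, -0.54 and -0.58). Rora rests on 14 treated and 52 control cells with a UMI.

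Genes of the ATF4 branch of the stress response had a median of -0.12 over 20 genes, with 0 higher and 4 lower. The 4 were Nupr1 (5.45 against 15.2 CPM, -1.48), the pseudokinase Trib3 (4.99 against 13.3 CPM, -1.42), Chac1, which degrades glutathione (174.8 against 276.6 CPM, -0.66), and Ddit4, an inhibitor of mTOR signalling (100.8 against 157.0 CPM, -0.64). With CPM over all UMIs Chac1 and Ddit4 were under the fold (-0.55 and -0.53). Atf4 itself stood at 384.0 and 352.9 CPM.

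Among survival and niche receptors, 1 of 18 genes was higher and 1 lower, with a median of -0.16. Il5ra, the alpha chain of the interleukin-5 receptor, had 220 UMIs in each library although the treated library had fewer plasma cells, which is 99.9 CPM in 88 treated cells and 37.6 CPM in 118 control cells (log2 ratio 1.41, 1.13 to 1.68). Within isotypes its ratio was 1.13 in IgM, 0.97 in IgG and 1.15 in IgA cells. Bcl2l11, the pro-apoptotic BIM, stood at 315.5 against 521.7 CPM (-0.73, -0.85 to -0.61), and at -0.55 with equal isotype weights. Tnfrsf13b (-0.04) and Mcl1 (-0.08), which support plasma cell survival, were close to equal, and Cd28 (-0.54) and Bcl2 (0.45) within the fold.

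Homing and adhesion genes were the most mixed list, with 5 of 25 genes higher, 5 lower and a median of -0.03. Cxcr3, the receptor for interferon-induced chemokines, stood at 9.08 CPM in 17 treated cells and 43.6 CPM in 157 control cells (-2.26, -3.00 to -1.61). Its ratio was -1.94 in IgM and -1.72 in IgG cells, and with equal isotype weights -1.81. Ccr6, from 3 treated UMIs and 36 control UMIs, had a log2 ratio of -2.18 (-4.52 to -0.51). Ccr10, the receptor for mucosal chemokines, was higher, at 39.5 CPM in 29 treated and 10.4 CPM in 26 control cells (1.92, 1.43 to 2.42), and 0.84 with equal isotype weights. Ly6k, of the Ly6 family of surface proteins, stood at 228.3 against 84.7 CPM (1.43, 1.25 to 1.61) in 40 and 45 cells. The retention receptor Cxcr4, at 207.0 and 216.6 CPM, was close to equal (-0.07).

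Of 20 measured B cell identity and antigen presentation genes 1 was higher and 3 were lower (median -0.18). Fcmr, a receptor for IgM, was the higher one, at 40.9 against 23.4 CPM (0.80, 0.40 to 1.20). The lower ones were Cd22 (-1.24, with 4 treated and 25 control UMIs), the inhibitory receptor Cd72 (-1.13, -2.26 to -0.15) and the factor Ebf1, at 132.6 against 202.2 CPM (-0.61), which was under the fold with CPM over all UMIs (-0.50). The invariant chain Cd74 stayed among the most abundant genes of plasma cells, at 6517 and 5304 CPM, against 10538 and 11608 CPM in B cells.

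Of 13 measured cytokines and regulatory molecules 2 were higher and 2 lower (median 0.01). Il10, the regulatory cytokine, was found in 141 treated and 326 control plasma cells, at 305.5 and 223.9 CPM (0.45), against 16.4 and 11.9 CPM in B cells. Ctla4, a checkpoint receptor, stood at 248.3 against 141.1 CPM (0.82, 0.66 to 0.97), and 0.50 with equal isotype weights. Pdcd1lg2, a ligand of PD-1, stood at 14.98 against 8.21 CPM (0.87, 0.18 to 1.54). Csf2 and Il6 were lower (-3.45 and -2.18), but Csf2 lay in 9 control cells and Il6 in 17, and the ratio of Il6 was -1.43 with every cell weighted equally.

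Irf5, the target of the small interfering RNA, was low in plasma cells and did not differ between the libraries beyond counting error, at 34.5 CPM from 76 UMIs in the treated and 38.1 CPM from 223 UMIs in the control library (log2 ratio -0.14, -0.54 to 0.24). The 3′ libraries count transcripts, so they bear on Irf5 RNA and not on its protein. Of 8 measured interferon regulatory factors 1 was lower (Irf7, -0.75). The type I interferon list had a median of -0.29 over 16 genes, with 0 higher and 4 lower. Within isotypes its median was 0.08 in IgM, -0.07 in IgA and -0.41 in IgG cells. The IgA value is the ratio that equal UMI counts give in the 29 treated and 36 control IgA cells, so it says little about these genes. The 4 lower genes were the antiviral effector Rsad2 (-0.62), Irf7, Isg15 and Xaf1. Under alternative settings Rsad2 and Irf7 came as near to 0 as -0.32 and -0.54, under the fold. Isg15, the ubiquitin-like modifier, stood at 29.5 against 65.7 CPM (-1.15, -1.56 to -0.77), and Xaf1 at 8.17 against 23.3 CPM (-1.51, -2.31 to -0.80). The list of interferon gamma and MHC class I genes held 5 of 17 lower and 0 higher (median -0.07), among them the GTPases Iigp1 (-1.15), Gbp7 (-0.84) and Igtp (-0.78) and the signalling inhibitor Socs1, at 57.7 against 113.8 CPM (-0.98, -1.27 to -0.70). Iigp1 lay in 2 treated and 18 control cells, and Gbp7 came as near to 0 as -0.38 under alternative settings. B2m, the shared MHC class I chain, was at 5065 and 4557 CPM.

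Immediate early and heat shock genes were the list with the most genes on the higher side, with 7 of 18 at least 1.5-fold higher, 0 lower and a median of 0.25. The largest ratios were those of the inducible HSP70 genes, Hspa1b at 54.5 against 8.72 CPM (2.64, 2.16 to 3.14) and Hspa1a at 49.5 against 11.97 CPM (2.05, 1.60 to 2.501), from 17 and 15 treated cells. These 2 genes are near-identical copies, so reads may be split between them. Fosb, at 236.5 against 115.6 CPM (1.03), and Fos, at 451.2 against 226.3 CPM (0.996), were more widely spread, in 148 and 167 treated cells. The clock gene Per1 (1.005) and Dbp (1.09) were 2 of 11 clock genes higher, and Arntl (-0.60) and Ciart (-0.59) the 2 lower. Arntl and Ciart passed by a small margin and came to -0.49 and -0.48 under alternative settings.

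**Figure D3:**
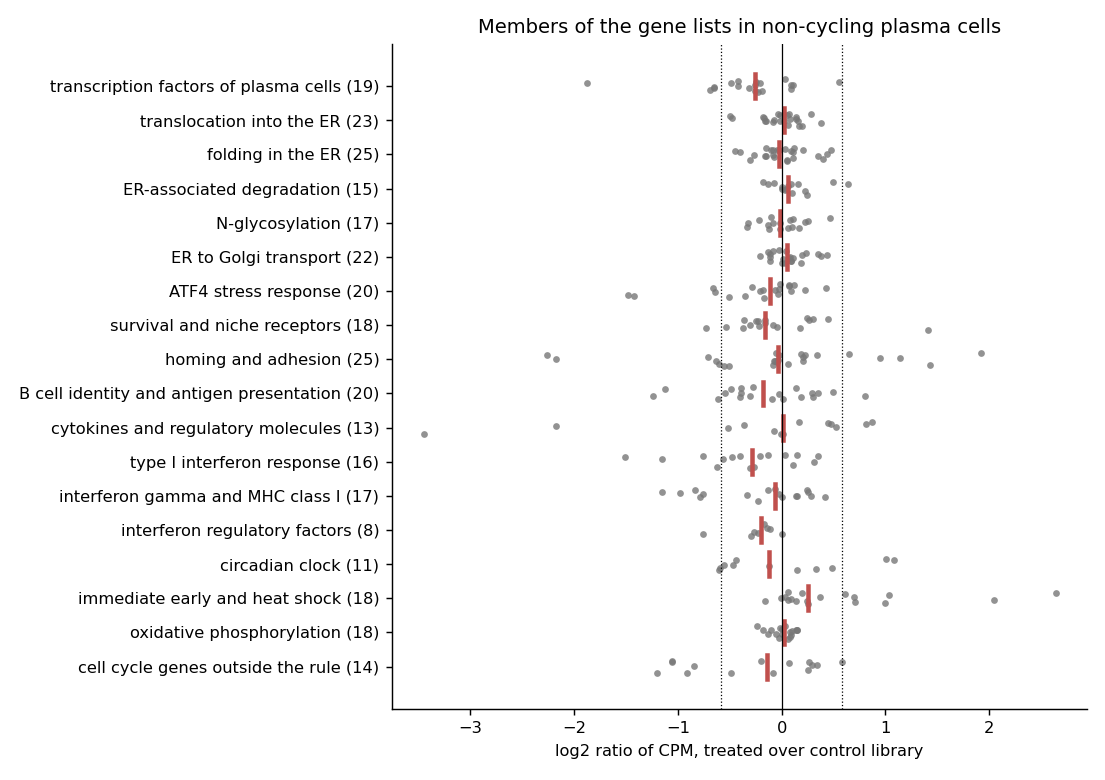
Each grey point is the log2 ratio of CPM, treated over control library, of 1 gene of the list named at left (number of measured genes in brackets), the red bar is the list's median, and dotted lines mark 1.5-fold. The lists of ER translocation, folding, glycosylation and transport lie within the lines, and 7 of 18 immediate early and heat shock genes lie to the right of them.

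The 12 highest log2 ratios of all genes included several that rest on few cells. Apol7c had 64 UMIs in the treated library, all in 1 cell, and 0 in the control library. Specc1 (2.52) had 79.4% of its treated UMIs in 1 cell and was at 0.31 without the top cells. Serpina3f and Serpina3g, serine protease inhibitors, stood at 87.2 against 19.8 CPM (2.14) and 167.1 against 58.3 CPM (1.52), the latter in 104 treated and 142 control cells. They were at 0.53 and 0.78 among cells with at most 10 UMIs of other cell types' markers. Rims2, known from synaptic release, stood at 35.4 against 10.1 CPM (1.81, 1.30 to 2.32), the sorting receptor Sorcs2 at 31.8 against 9.41 CPM (1.76, 1.23 to 2.29), and the cell cycle inhibitor Cdkn1a (p21) at 49.5 against 18.1 CPM (1.45, 1.05 to 1.85). Hspa1b, Hspa1a, Ccr10, Ly6k and Il5ra, described above, made up the rest of the 12.

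Of the 12 lowest, most were genes of connective tissue cells held by a handful of control cells. Dcn, encoding the matrix protein decorin, had 364 UMIs in 11 control cells and 0 in the treated library, so it was at least 45.7-fold lower there. Exactly 5 control cells held at least 5 Dcn UMIs each, and these 5, all IgG, held 97.8% of the Dcn UMIs, 93.4% of those of Cxcl12 (-5.11), 93.0% of Csmd1 (-4.30), 79.0% of Tnfaip6 (-4.12), 65.4% of Cxcl13 (-4.06), 79.8% of C3 (-2.14), 52.4% of Gsn (-2.08) and 117 of the 156 UMIs of Cxcl1 (-1.56). The fibroblast and smooth muscle list summed to 1.82 CPM in the treated and 82.3 CPM in the control plasma cells, with Dcn, Lum and Col1a2 at 0 in the treated library. What these 5 cells are was not tested. Spp1 (-2.15) had 79.6% of its control UMIs in 1 cell and was at 0.09 without the top cells. Cxcr3, Rora and Pxdc1, at 6.81 against 26.9 CPM in 11 and 90 cells (-1.98, -2.85 to -1.21), made up the rest.

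Other cell types' markers were low but seldom absent. Macrophage markers summed to 781.7 CPM in the treated and 596.6 CPM in the control plasma cells, with 1 of 8 measured genes higher (C1qb, 0.89) and 1 lower (Mrc1, -0.64, but 0.19 in cells with at most 10 UMIs of other cell types), and neutrophil markers to 2170 and 2454 CPM, close to the 2675 and 3430 CPM of B cells. T and NK cell markers summed to 33.6 and 35.6 CPM. The median plasma cell held 8 UMIs of these lists together in the treated and 5 in the control library. Erythroid markers summed to 500.7 against 2.91 CPM, with 98.1% of the treated UMIs in 1 cell. Doublet calls fell on 1 of 256 treated and 25 of 784 control plasma cells. Cell cycle genes outside the rule held 5 of 14 lower and 0 higher, at 762.6 and 843.7 CPM in sum against 8183 and 9442 CPM in cycling plasmablasts.

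Slpi, secretory leukocyte protease inhibitor, was the gene outside the immunoglobulin genes with the largest difference in CPM between the libraries. It stood at 22235 CPM in treated and 50203 CPM in control plasma cells (-1.17, -1.19 to -1.16), where it was second to Jchain among the named abundant genes of the control library. In B cells it was at 120.9 and 185.3 CPM. Ly6c2, a surface protein of the Ly6 family, stood at 1992 and 3028 CPM (-0.60, -0.65 to -0.56), against 44.4 and 40.6 CPM in B cells. With equal isotype weights the ratios were -0.56 for Slpi and -0.09 for Ly6c2, both under 1.5-fold. Within isotypes, Slpi was lower in the treated library in IgG cells (51261 against 77874 CPM) and in IgM cells (6017 against 9346 CPM). Both of these passed 1.5-fold by a small margin. In IgA cells Slpi was higher in the treated library, at 15494 against 8689 CPM, and 1 cell held 37.6% of the treated IgA UMIs. The weighted ratio of -0.56 takes in these IgA cells.

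Both genes followed the isotype in each library. Slpi stood at 51261 CPM in IgG and 6017 CPM in IgM cells of the treated library, and at 77874 and 9346 CPM in those of the control library. In single treated cells the median was 161.6 UMIs per 10000 non-immunoglobulin UMIs in IgG cells (lowest 0, highest 2956), 5.88 in IgM cells (0 to 1059) and 37.99 in IgA cells (0 to 1192). In single control cells it was 481.9 in IgG cells (0 to 4470), 31.9 in IgM cells (0 to 1549) and 26.5 in IgA cells (0 to 630.6). The isotypes overlapped widely from cell to cell, and both IgM and IgG cells had a lower median in the treated library. Among IgG subclasses Slpi was lowest in Ighg3 cells, 2123 CPM in 5 treated and 32372 CPM in 25 control cells, and highest in Ighg2c cells, 56957 and 92490 CPM.

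Ly6c2 stood at 4044 CPM in IgG and 895.4 CPM in IgM cells of the treated library and at 4609 and 628.8 CPM in those of the control library. It was thus higher in IgG cells in both. Between the libraries, the summed level was higher in treated IgM cells (log2 ratio 0.51) and slightly lower in treated IgG cells (-0.19). The median IgM cell was lower in the treated library, at 1.12 against 1.96 UMIs per 10000 non-immunoglobulin UMIs. A UMI was found in 53.3% of treated and 64.1% of control IgM cells, and 1 cell held 19.2% of the treated IgM UMIs. From cell to cell, Spearman's rho between Slpi and Ly6c2 was 0.10 over 77 treated and 0.17 over 458 control IgG cells, -0.26 over 150 treated and -0.04 over 281 control IgM cells, and 0.31 over 29 treated and -0.22 over 36 control IgA cells. The cells of each value share library and depth, and the sign differed between the libraries in IgA cells.

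**Figure D4:**
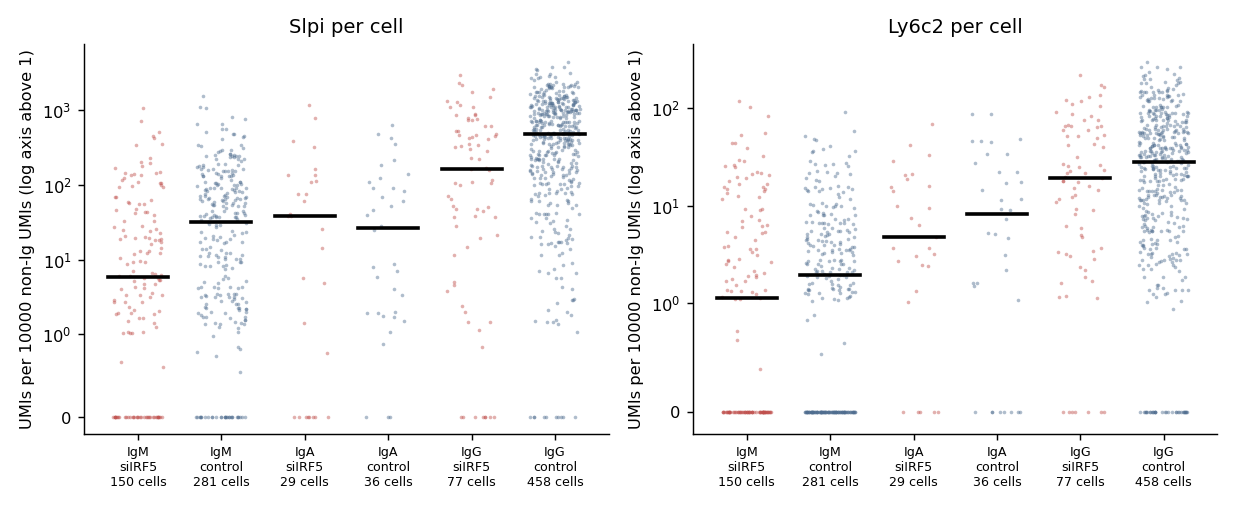
Slpi (left) and Ly6c2 (right) in each non-cycling plasma cell, as UMIs per 10000 non-immunoglobulin UMIs on an axis that is logarithmic above 1, by isotype and library. Points are cells and black lines medians; the Slpi median is highest in IgG cells of both libraries (161.6 treated, 481.9 control).

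Other genes differed between IgM and IgG cells in the same direction in both libraries. Of 7047 genes measured in both, 69 (0.979%) were at least 2-fold higher in IgM cells in each library, 26 (0.369%) at least 2-fold lower in each, and 8 past 2-fold in opposite directions. The cells of 1 library are not replicates, so the libraries give 2 values of each ratio. Ubash3b, a phosphatase that damps antigen receptor signals, stood at 938.7 CPM in IgM and 156.9 CPM in IgG cells of the treated library (log2 ratio 2.58, 2.30 to 2.87), and at 634.6 and 99.5 CPM in the control library (2.67, 2.499 to 2.85). The inhibitory receptor Btla (2.84 treated, 2.59 control), the unconventional myosin Myo1d (3.63 and 2.33), Wipf3 (2.31 and 3.07) and Rims2 (3.16 and 4.10) were also higher in IgM cells. Lag3, an inhibitory receptor for MHC class II, had 25 UMIs in treated IgM cells and 0 in treated IgG cells, which makes it at least 5.09-fold higher, and 41 and 3 UMIs in the control library (4.49, 2.85 to 6.83).

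Higher in IgG cells, besides Slpi and Ly6c2, were Vpreb3, a partner of newly made heavy chains (-3.06 treated, -4.18 control), the interferon-induced GTPase Gbp2 (-2.13 and -2.63), Fads3 (-3.20 and -1.79) and Rgs3. Vpreb3 stood at 132.3 CPM in IgG and 15.8 CPM in IgM cells of the treated library and at 245.3 and 13.5 CPM in the control library. Rgs3, a regulator of G protein signalling, had 2 UMIs in treated IgM cells, a ratio of -3.96 (-7.10 to -1.91), and 6 in control IgM cells (-2.65, -4.15 to -1.44). The ER folding list had medians of -0.23 and -0.12 for IgM over IgG cells, so it did not separate the isotypes by much.

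**Figure D5:**
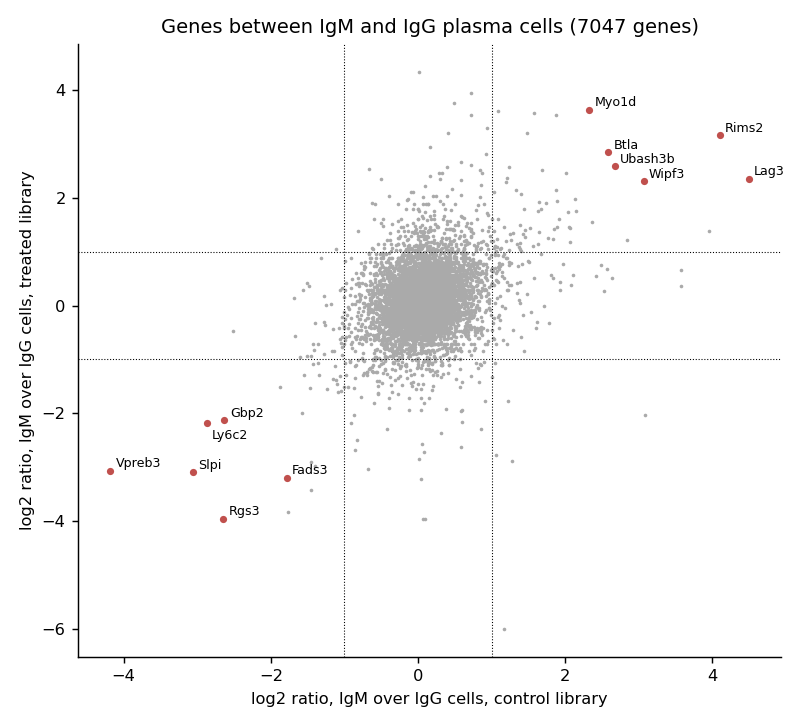
Log2 ratio of CPM of IgM over IgG plasma cells for 7047 genes, control library on the x axis and treated library on the y axis, with the 12 named genes in red and dotted lines at 2-fold. Ubash3b, Btla, Rims2, Lag3, Myo1d and Wipf3 lie at upper right and Slpi, Ly6c2, Vpreb3, Gbp2, Fads3 and Rgs3 at lower left.

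Of IgM, IgA and IgG cells, IgA cells had the highest levels of Jchain and, summed over cells, of the homing receptor Ccr10. Jchain, which the rule used in sum with Mzb1, stood at 124584 CPM in IgA, 72635 CPM in IgM and 37189 CPM in IgG cells of the treated library, and at 149313, 72877 and 46155 CPM in those of the control library. The order IgA, IgM, IgG was the same in both. Ccr10 stood at 251.5 CPM in IgA against 8.19 CPM in IgG cells of the treated library (log2 ratio 4.94, 3.75 to 6.44) and at 166.9 against 4.10 CPM in the control library (5.35, 4.45 to 6.33). A Ccr10 UMI was found in 18 of 29 treated and 11 of 36 control IgA cells, against 4 of 77 and 11 of 458 IgG cells, and 1 cell held 25.6% of the UMIs of the control IgA cells. Of 5161 genes, 35 (0.678%) were at least 2-fold higher in IgA than in IgG cells in each library, 85 (1.65%) at least 2-fold lower in each and 30 past 2-fold in opposite directions. With 29 and 36 IgA cells many of these ratios rest on few UMIs.

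The other genes named on the IgA side were the transcription factor Runx2 (4.12 treated, 2.98 control), the chemokine Pf4 (2.73 and 2.29), the sodium pump subunit Atp1b1 (1.62 and 2.99) and the cyclin Ccne2 (20 treated UMIs in IgA and 2 in IgG cells, a log2 ratio of 4.76, 2.72 to 7.90; 2.14 in the control library). Pf4 had 39.6% of its treated UMIs in 1 cell and Ccne2 45.2%. Lower in IgA cells were the B cell surface protein Ms4a1 (CD20; 6 UMIs in treated IgA cells, -2.26, -3.75 to -1.07; 3 in control IgA cells, -2.95, -5.24 to -1.39) and the exonuclease Pld4 (5 UMIs, -2.24, -3.91 to -0.94; 2 UMIs, -3.60, -6.65 to -1.73). Aff3, Cnpy3, Ints7 and the neutrophil granule gene Ngp were lower as well, each from 1 to 3 UMIs in IgA cells. For Cnpy3 and Ints7 the control interval (-7.80 to 0.04 and -7.78 to 0.06) held 0.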

How the data were processed

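The authors deposited UMI counts per gene and barcode with no normalization, 1 matrix per library. The submitters' processing notes list Seurat 4.4.0, Cell Ranger 3.1.0 and build mm10, whereas Cell Ranger 7.2.0 wrote the matrices, per the file headers. Whether intronic reads were counted, which sets the level of genes with long introns, is not stated. The kit was a 10x Genomics 3′ kit, per the labels' protocols.

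Counts were summed over member cells per library (Python 3.11.15, numpy 2.4.6, scipy 1.17.1) and scaled to CPM over UMIs outside 392 immunoglobulin genes. A log2 ratio is treated over control. Where a gene had 0 UMIs the ratio used 3 UMIs and is a bound. Levels have exact Poisson, ratios exact conditional binomial and shares exact Clopper-Pearson intervals, at 95%. An isotype needed at least 10 UMIs and 60% of heavy constant UMIs, a V gene at least 5 UMIs and 60%. Doublets were called with Scrublet (scanpy 1.11.5) and kept in. The ratio code was checked on simulated counts.

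Genes were named by rule: the 12 highest and 12 lowest ratios among genes with at least 50 UMIs and 20 CPM, up to 4 per list, the 15 most abundant, and 6 at each end between isotypes. From the lists and the most abundant genes, the text gives a selection, and other list members are given for their role. Mitochondrial, ribosomal protein, haemoglobin, sex-linked, predicted and antigen receptor segment genes were left out. The 25 lists and the members were chosen with earlier results of these data known. Some items are not reported here.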

Additional observations from a re-analysis of the deposited data

Results flagged for a closer look

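Of the 157 named genes with a ratio, 5 had ratios of the libraries of opposite sign in IgM and IgG cells, with intervals on either side of 0. Many of the named genes were picked for differing between libraries or isotypes, and other genes were not searched. The difference between the isotypes was not tested, since each rests on 1 library per group. Ly6c2 had a log2 ratio of 0.51 in IgM and -0.19 in IgG cells. Its median IgM cell was lower in the treated library, at 1.12 against 1.96 UMIs per 10000 non-immunoglobulin UMIs. Atp1b1 had -1.59 in IgM and 2.25 in IgG cells, and the lambda constant gene Iglc1 1.59 and -1.22. The neutrophil genes Retnlg (-0.30 and 0.24) and S100a9 (-0.47 and 0.13) did the same, with 41.9% and 22.1% of their treated UMIs in 1 cell. Iglc1 had a median of 6876 and 5904 UMIs in the 14 treated and 40 control lambda cells, against 5 and 4 in kappa cells. Its ratios thus rest largely on the lambda cells.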

How the results depend on the processing

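No paired analysis was possible because each group has 1 library, and no replicate could be left out. With at least 1000 genes per cell the shares of plasma cells were 2.56% (treated) and 7.30% (control). With at most 10 UMIs of other cell types (chosen after seeing the data) they were 1.39% and 5.67%, with IgM at 65.9% and IgG at 23.7% of treated cells. With at most 1 such UMI only 6 and 41 cells were left (0.0481% and 0.341%; IgM 83.3% and 41.5%, IgA 16.7% and 2.44%, IgG 0 of the treated cells, and 83 genes higher and 115 lower). Genes past 1.5-fold numbered 463 higher and 831 lower with at least 20 UMIs, 51 and 126 with at least 200 UMIs, 118 and 47 with CPM over all UMIs, and 128 and 286 with at most 10 UMIs of other cell types. With kappa V genes called at 90% of UMIs (chosen after seeing the data), 37 treated and 138 control cells had a pair, 5 and 29 the most frequent one, and 14 and 91 were in pairs of at least 2 cells, where the counts were 67 and 188, 7 and 34, and 37 and 132 at 60%. With at least 2 UMIs (also chosen so) they were 144 and 454, 23 and 53, and 86 and 346. With Iglv1 among the light V genes, the counts were 57 and 176, 8 and 29, and 39 and 144, at 90% of UMIs 16 and 31, 3 and 6, and 9 and 22, and with at least 2 UMIs 124 and 387, 17 and 43, and 93 and 337.

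Signs turned for Spp1 (0.21 with at least 50 UMIs of Jchain and Mzb1, 2.95 and 0.50 with at most 1 and 10 UMIs of other cell types, 0.086 without top cells), Ngp (1.39 without doublet calls, 2.36 and 0.28 with at most 1 and 10 such UMIs), Fos (-0.99), Rora (0.36), Socs1 (0.86) and Mcm3 (1.36, from 1 and 3 UMIs) with at most 1, Specc1 (-0.16) and Mrc1 (0.19) with at most 10, and Hba-a1 and the erythroid list (both -0.18) without top cells. Causes other than fewer cells, genes or UMIs were not tested. Of 89 named genes past 1.5-fold, 50 kept the fold and 80 the sign under all 14 alternatives that gave them a value. An alternative that took away all of a gene's UMIs in a library gave no value and could not count against it. For a gene already at 0 UMIs in a library, a bound of the opposite sign was also left out. Such a gene could not fail the count of signs. Apol7c, whose treated UMIs all lay in 1 cell, is thus among the 50.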
